A study of Mus musculus with 19 samples.

Results

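Liver miRNA was compared between male MutaMouse animals given 25 mg/kg/day of dibenz[a,h]anthracene (DB[a,h]A), called the high dose, and animals given 12.5 mg/kg/day, called the middle dose. The comparison took the arrays titled with these doses, which were 5 high dose and 4 middle dose arrays, 9 of the 19 in the series, with 1 mouse per array. All of these mice were 10 weeks old by the labels, carried the MutaMouse transgene (strain 40.6, a bacterial reporter gene used to count mutations), received the compound in olive oil by gavage every day for 28 days, and were killed 3 days after the last dose. Part of the liver was taken, so each array held RNA of all the cells of the tissue, and fewer cells of a type cannot be told apart from less RNA per cell. Another 5 arrays at 6.25 mg/kg/day, the low dose, entered 1 contrast, and no vehicle array was used. Across the high and middle dose arrays 696 mouse miRNAs were on the array design. Of these, 175 were detected on at least 4 of the 9 arrays and were tested, 29 were detected on 1 to 3 arrays and 492 on none. The question was whether the liver miRNA profile at the high dose differs from that at the middle dose.

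A miRNA is a short RNA that guides the silencing of messenger RNAs, mostly through its seed, bases 2 to 8 from its 5′ end. DB[a,h]A is a polycyclic aromatic hydrocarbon that binds the aryl hydrocarbon receptor, and liver enzymes turn it into products that bind DNA. DNA damage stabilises the transcription factor p53, and p53 induces miR-34a, which restrains the cell cycle. Several of the miRNAs below are cut from shared primary transcripts, and those of 1 transcript are often measured at levels that move together.

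The mature sequences of the miRNAs that the results turn on are shown from RefSeq, with positions in GRCm38.p6, and the seed is in capitals. They are miR-34a, the p53 target, the miR-23a cluster with miR-27b of its paralogous cluster, the miR-199a pair of stromal cells, the miR-106b cluster with its seed relatives miR-20a and miR-92a, and miR-802 of hepatocytes. Of the 20 miRNAs looked up for display, all but miR-23b were matched in the table.
miR-34a: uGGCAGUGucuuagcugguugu
miR-23a: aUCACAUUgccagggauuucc
miR-27a: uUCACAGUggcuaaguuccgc
miR-27b: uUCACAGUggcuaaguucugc
miR-24: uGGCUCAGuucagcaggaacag
miR-199a-5p: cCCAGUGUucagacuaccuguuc
miR-199a-3p: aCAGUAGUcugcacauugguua
miR-25: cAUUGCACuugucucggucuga
miR-92a: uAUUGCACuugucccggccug
miR-93: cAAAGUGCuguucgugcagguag
miR-106b: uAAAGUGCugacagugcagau
miR-20a: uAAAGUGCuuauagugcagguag
miR-802: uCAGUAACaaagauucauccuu
miR-34a lies on the plus strand at chr4:150068473-150068494. The miR-23a, miR-27a and miR-24-2 hairpins lie within 404 bases on the plus strand at chr8:84208518-84208921, and miR-24 has a second hairpin beside miR-27b on chromosome 13. The hairpin pair of miR-199a-2 and miR-214 lies on the plus strand at chr1:162217814-162223477, and that of miR-25, miR-93 and miR-106b on the minus strand at chr5:138165321-138165818. The miR-199a pair has a second hairpin, miR-199a-1, on chromosome 9 with the same mature sequences. By seed, miR-27a and miR-27b form one group, miR-25 and miR-92a another, and miR-93, miR-106b and miR-20a one more. Signal shared between such near-identical family members on their probes was not tested.

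An array detected 169.8 ± 12.7 miRNAs at the high dose (SD, n = 5) and 169.5 ± 11.1 at the middle dose (SD, n = 4; exact permutation within slides, two-sided p = 0.611). The labelling spike-ins, RNA added ahead of the dye reaction, read 10.07 ± 0.16 (log2) at the high dose (SD, n = 5) and 10.43 ± 0.22 at the middle dose (SD, n = 4). That within-slide difference was -0.38 (exact permutation p = 0.0556, 0.222 adjusted over 4 whole-array measures), with -0.27, -0.39 and -0.59 on the 3 slides. With 36 arrangements within slides no p could fall below 0.0278, so the adjusted value does not show equal spike-in signal. The exact permutation over all 9 arrays gave p = 0.0317 (0.127 adjusted). The levels of 2 arrays correlated across the tested miRNAs, which are not independent, at r of 0.973 to 0.997 within the high dose, 0.978 to 0.994 within the middle dose and 0.971 to 0.997 between the doses. The other 2 measures, the 75th percentile of signal and the hybridization spike-ins, differed by -0.08 and -0.16 (adjusted p = 0.667 and 0.444). Slide 1 held 2 high and 2 middle dose arrays, slide 2 held 2 and 1, and slide 3 held 1 and 1. On slides 1 and 2 the high dose arrays lay in columns 3 and 4 and the middle dose arrays in columns 1 and 2, so dose and position there cannot be told apart. Of the hepatocyte markers, miR-122, miR-192, miR-194 and miR-148a were detected on all 9 arrays and miR-802 on 8, and of 8 muscle and pancreas miRNAs on the array 0 were detected often enough to be tested.

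No miRNA passed the test between the high and the middle dose. A level of 0 on the log2 scale used here equals the 75th percentile of an array's detected probes, and a difference is high minus middle dose with the slide as a block. By limma, 0 of 175 miRNAs (0%) had a Benjamini-Hochberg adjusted p under 0.05, and the smallest was 0.324. At an unadjusted p under 0.05 there were 10 of 175 (5.71%), 2 with a positive and 8 with a negative difference. The threshold itself gives 8.75 over the 175, but 17 of these had a difference fixed at 0 by the floor (defined below). Those 17 could not reach it. Refitted alone with limma, the 126 miRNAs never at the floor had 1 positive and 4 negative differences under that threshold. The differences ran between -0.74 and 0.47, with a median of -0.02, and their 5th and 95th percentiles were -0.37 and 0.10. All 5 high dose arrays lay below all 4 middle dose arrays for 3 of 175 miRNAs (1.71%) and above them for 0 of 175 (0%). The high dose mean lay below the middle dose mean on each of the 3 slides for 22 miRNAs (12.6%) and above it for 4 (2.29%). The sign of most differences rests on the scaling: 55 were above 0 and 103 below it here, against 138 and 17 when the percentile was taken over all probes and 154 and 16 when arrays were scaled on the labelling spike-ins. The last scaling, on the spike-in signal that lay lower at the high dose, called 5 miRNAs, all higher.

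The intervals say which differences these arrays leave possible. The 95% interval of the difference lay within 1.5-fold for 153 of the 175 miRNAs and within 2-fold for 166. The count within 1.5-fold depends on the scaling and background, with 102 when the percentile was taken over all probes, 116 with labelling spike-ins or no scaling, 115 on the total signal per miRNA and 24 with normexp background correction. Of the 175, 17 were at the floor on all 9 arrays and so had a difference of exactly 0. The floor is the median over arrays of each array's faintest probe above background, so detected signal can lie under it. For example, miR-129-2-3p, 1 of these 17, was detected on 5 high dose and 3 middle dose arrays. Where no array touched the floor, for 126 miRNAs, the counts were 111 and 119. For these 126 the median half-width was 0.24 on the log2 scale, or 1.18-fold. Intervals were widest for miR-200a (-2.67 to 2.43), miR-200b (-2.60 to 2.40) and miR-143 (-2.26 to 0.79), so for them even several-fold differences were not detectable with 9 arrays.

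**Figure D1:**
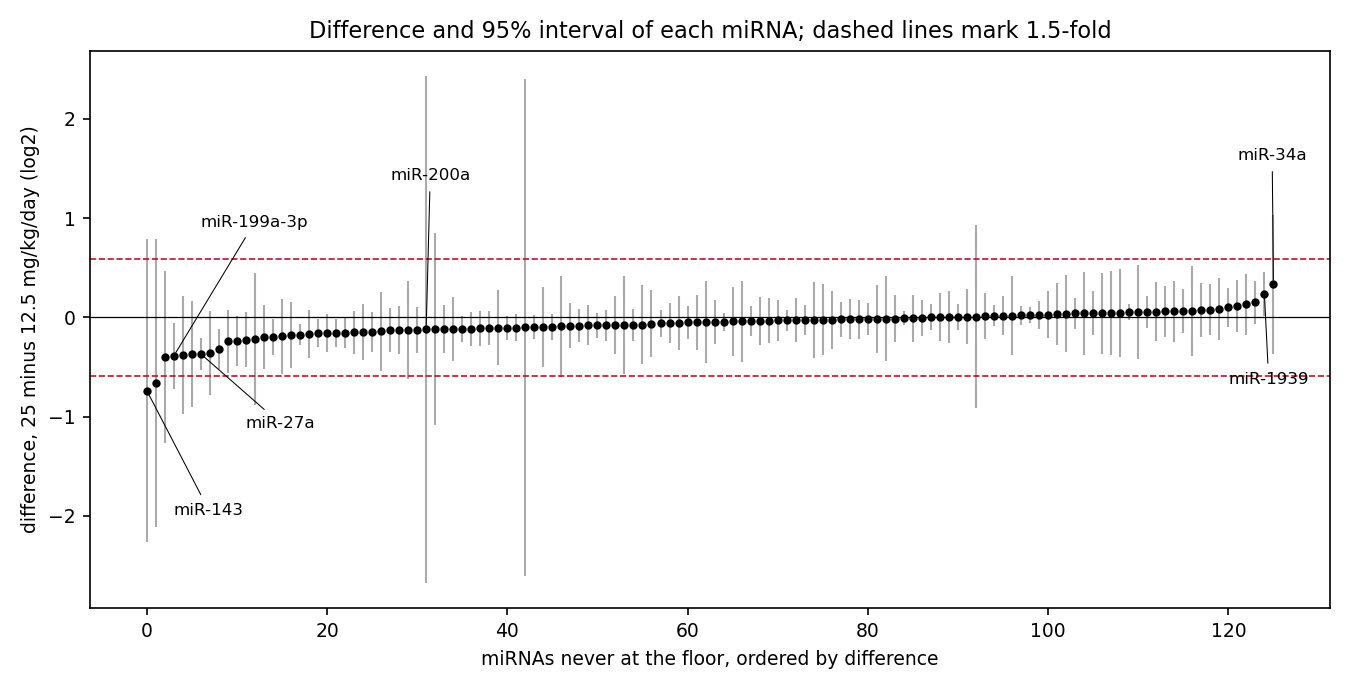
Each point is the difference (high minus middle dose, log2) of 1 of the 126 miRNAs that touched the floor on no array, in rising order, and the vertical line is its 95% interval. Dashed lines mark 1.5-fold either way. The intervals of 111 miRNAs stay between the dashed lines, and that of miR-34a reaches 1.04.

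miR-34a, the p53 target, had overlapping levels at the 2 doses. Its level was 0.32, 0.06, -1.08, -0.27 and -0.52 on the high dose arrays and 0.09, -0.41, -0.44 and -1.58 on the middle dose arrays. The highest value belonged to a high dose liver and the lowest to a middle dose liver, and the other 7 were interleaved. The means were -0.30 ± 0.54 at the high dose (SD, n = 5) and -0.58 ± 0.71 at the middle dose (SD, n = 4). The difference was 0.33, or 1.26-fold, with a 95% interval of 0.774- to 2.05-fold (limma adjusted p = 0.859). It was 0.35, -0.23 and 1.06 on slides 1, 2 and 3, so slide 2 ran the other way. The exact permutation p, two-sided, was 0.361 within slides and 0.484 over all 9 arrays. Its other probe gave 0.39. The interval therefore includes a doubling and a small difference the other way, and equal levels are not shown.

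The doses double at each step, and the low dose arrays allow the high minus middle step to be set against the middle minus low step in 1 fit of 14 arrays. At the low dose miR-34a stood at -0.70, -2.89, -2.85, -2.99 and -2.97, with 1 liver near the higher doses and 4 close together. In that fit the middle minus low step was 1.53 (95% interval 0.81 to 2.25) and the high minus middle step 0.38 (-0.32 to 1.08). Per mg/kg/day these steps came to 0.245 and 0.0303 on the log2 scale. The change of step was -1.15 (95% interval -2.41 to 0.11; limma adjusted p = 0.718), so a smaller step at the top was not established by this test. Each of the 14 arrays was left out in turn, and the change of step was -0.457 without middle dose replicate 14. Its values without each of the other arrays are not given here. Of 193 miRNAs 0 (0%) passed for a change of step, and 11 (5.7%) had an unadjusted p under 0.05, 3 positive and 8 negative, against 9.65 given by the threshold. Some of the 193, such as miR-18a, were at the floor on all 14 arrays and could not reach that p. The 2 steps share the middle dose arrays, which the contrast's error takes into account.

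**Figure D2:**
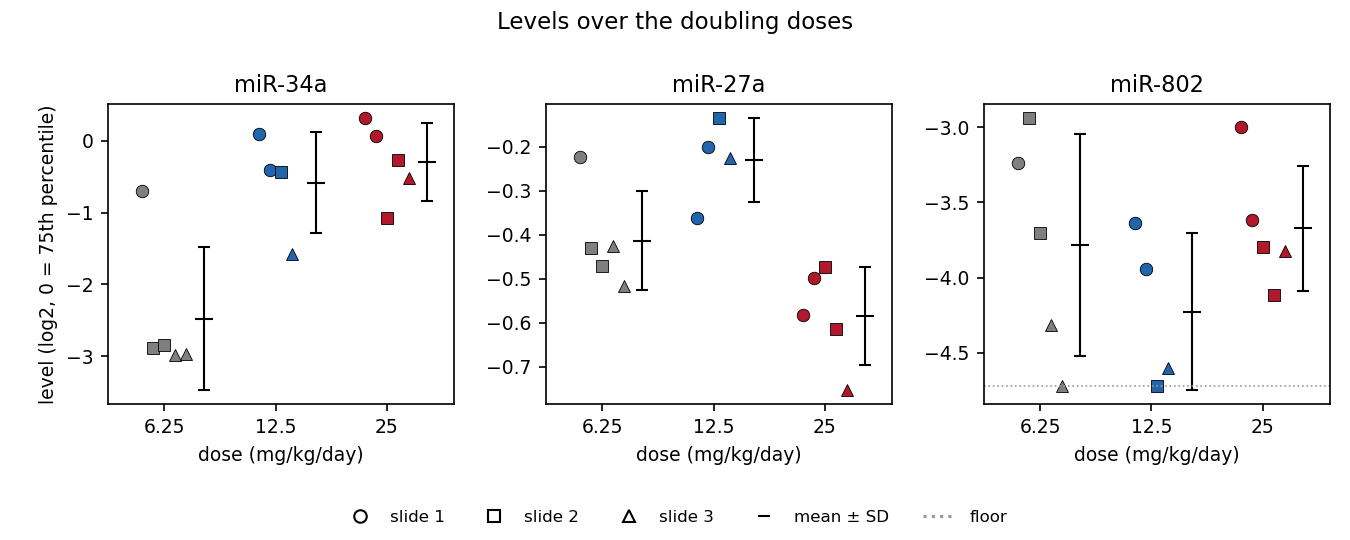
Levels (log2, with 0 at an array's 75th percentile) of miR-34a, miR-27a and miR-802 at 6.25, 12.5 and 25 mg/kg/day, 1 point per mouse with the slide as its shape and the mean ± SD beside each group. miR-34a at 25 and 12.5 mg/kg/day overlaps, while 4 of 5 low dose livers lie near -2.9.

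The smallest p belonged to miR-27a, cut from the miR-23a transcript and known to target regulators of lipid metabolism. Its level was -0.58, -0.50, -0.47, -0.61 and -0.75 at the high dose and -0.36, -0.20, -0.13 and -0.22 at the middle dose. The groups did not overlap. The difference was -0.37 or 0.775-fold (95% interval -0.53 to -0.20; limma adjusted p = 0.324), with -0.26, -0.41 and -0.53 on slides 1 to 3. Its other probe gave -0.37. It stayed below 0 under all 18 other settings and without any 1 array, between -0.45 and -0.07, and was called with quantile normalization alone (adjusted p = 0.0443). Its change of step was -0.52 (limma adjusted p = 0.338), the smallest p of that contrast.

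The other miRNAs of the 2 paralogous clusters lay on the same side with smaller differences. miR-24, a regulator of cell cycle genes cut from both clusters, stood at 0.39, 0.33, 0.37, 0.24 and 0.21 at the high dose and 0.47, 0.61, 0.44 and 0.41 at the middle dose. These groups also did not overlap, by a small gap. The miR-24 difference was -0.17 (95% interval -0.28 to -0.07, adjusted p = 0.399). miR-23a differed by -0.19 (-0.38 to -0.01, adjusted p = 0.735) with overlapping groups. In the refit of miRNAs never at the floor the miR-23a interval was -0.39 to 0.004 and so included 0. miR-27b, which shares the seed of miR-27a, differed by -0.10 and miR-23b by -0.04. All 5 tested members of the list were below 0, with a median of -0.17 beside -0.02 over all 175 miRNAs, and 0 passed. With all probes or labelling spike-ins as the scale 4 of the 5 turned above 0, with medians of 0.07 and 0.13, while the medians of all miRNAs were 0.13 and 0.21.

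**Figure D3:**
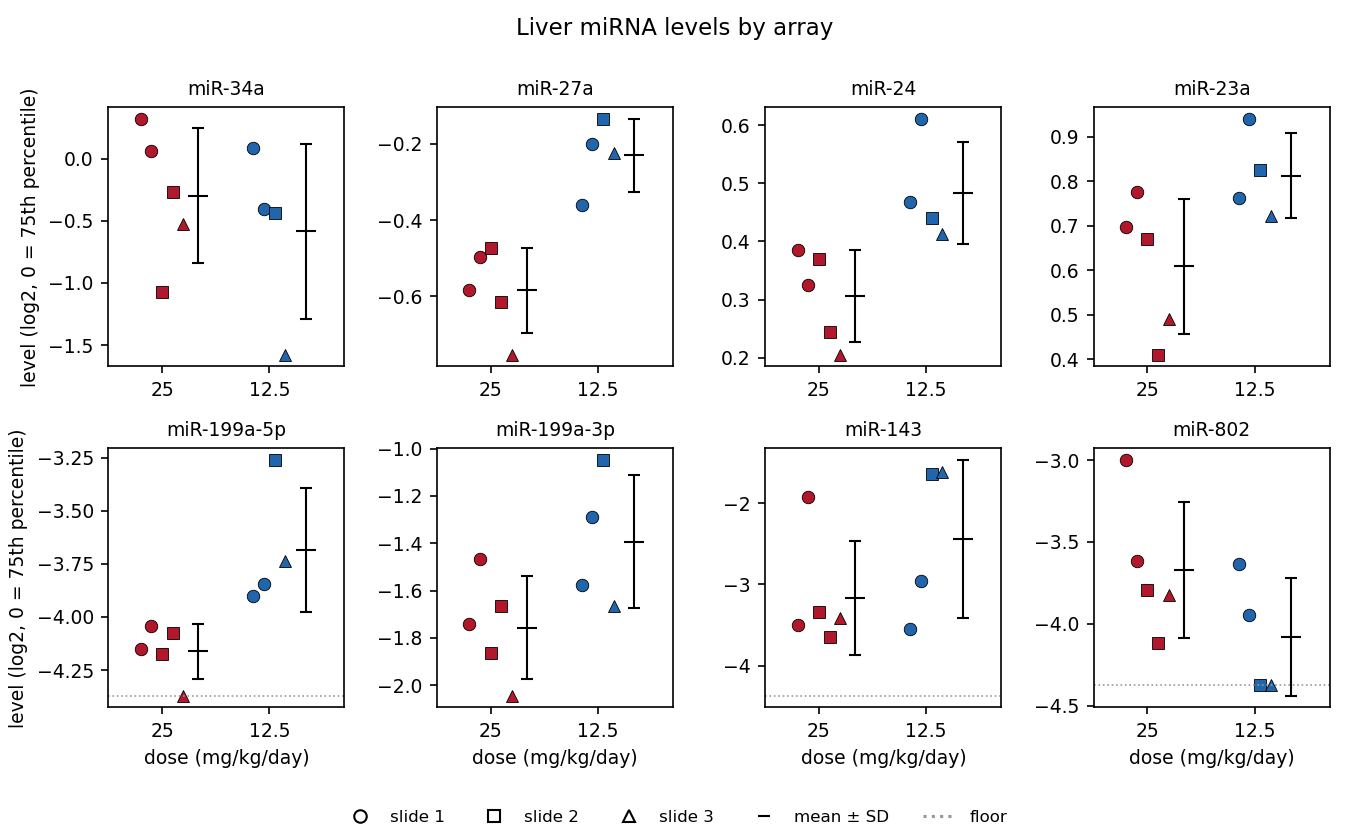
Levels (log2, with 0 at an array's 75th percentile) of 8 miRNAs at 25 and 12.5 mg/kg/day, 1 point per mouse with the slide as its shape, the mean ± SD beside each group, and the floor of -4.37 dotted where levels come near it; each panel has its own scale. The groups of miR-27a, miR-24 and miR-199a-5p do not overlap, and those of the other 5 do.

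Markers of stellate and smooth muscle cells had the most negative list median. miR-199a-5p, made by stellate cells and other fibroblast-like cells, was at -4.15, -4.04, -4.18, -4.07 and -4.37 at the high dose, the last at the floor, and at -3.90, -3.84, -3.26 and -3.74 at the middle dose. The groups did not overlap, yet most levels lay close to the floor, and its other probe was detected on 0 arrays. The miR-199a-5p difference was -0.51 (95% interval -0.82 to -0.20, adjusted p = 0.399). miR-199a-3p from the same hairpin was brighter, at -1.74, -1.47, -1.86, -1.66 and -2.04 at the high dose and -1.57, -1.29, -1.05 and -1.66 at the middle dose. These overlapped, with a difference of -0.39 (95% interval -0.72 to -0.05, adjusted p = 0.735). miR-143, abundant in smooth muscle, differed by -0.74, and by -1.26 without high dose replicate 8 and -0.18 without middle dose replicate 14. miR-199b* differed by -0.72, and by -0.36 without middle dose replicate 14. It stood at -4.19, -3.46, -4.30, -4.28 and -4.37 at the high dose and -4.07, -3.27, -2.85 and -3.47 at the middle dose. Most of its high dose levels thus lay at or close to the floor, which limits the size of the difference. miR-214, at the floor on 7 of 9 arrays, differed by -0.12. miR-145, which shares a transcript with miR-143, was detected on 0 arrays. All 5 tested members were below 0 with a median of -0.51, and 0 passed. Their median was -0.18 without middle dose replicate 14, and with a floor 4 times higher only 2 of the 5 were below 0. The summed signal of the list (log2) was -1.06 to -0.28 on high dose arrays and -0.75 to 0.15 on middle dose arrays. The skeletal and heart muscle miRNA miR-1 was above background in few livers. On the scale of the 14-array fit, which has its floor at -4.72, it stood at -2.67 in high dose replicate 8, -4.10 in middle dose replicate 14 and 0.77 in middle dose replicate 20, and at the floor on the other 6 arrays. These 3 livers were also the 3 highest for miR-143. The part of these cell types in the differences was not tested.

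Single livers decided the level of several markers. miR-200b, an epithelial miRNA that keeps the epithelial state and marks bile ducts in liver, stood at -3.71, 0.00, -3.52, -3.21 and -3.89 at the high dose and -3.86, -1.37, -1.84 and -3.99 at the middle dose. High dose replicate 8 was far above the other 4, and middle dose replicates 6 and 14 were above the other 2. miR-200a, cut from the same transcript, was highest in the same 3 livers, with 0.02 in high dose replicate 8. miR-143 was at -3.50, -1.92, -3.34, -3.65 and -3.42 at the high dose and -3.55, -2.96, -1.64 and -1.61 at the middle dose. The same high dose liver was the highest of its group for miR-143 and miR-199b*. The summed signal of the bile duct list ran between -1.76 and 1.10 at the high dose and between -1.91 and -0.13 at the middle dose. Its 4 tested members had a median difference of -0.11, and this median ran between -0.52 without high dose replicate 8 and 0.34 without middle dose replicate 14, so its sign rests on single livers.

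**Figure D4:**
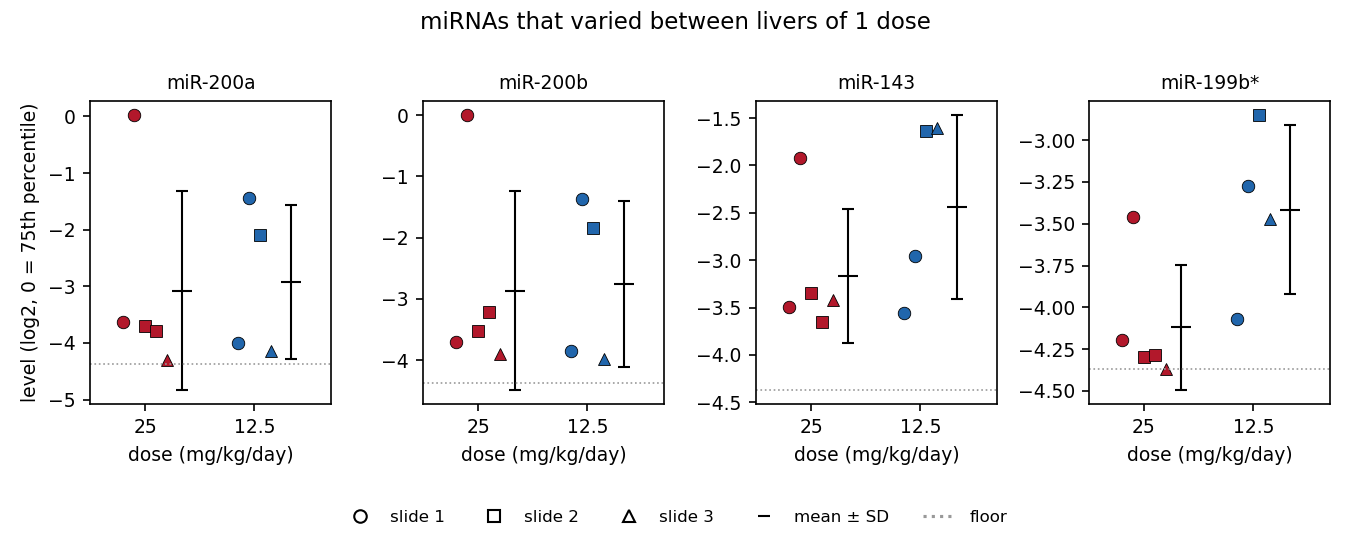
Levels (log2, with 0 at an array's 75th percentile) of 4 epithelial and stromal miRNAs at 25 and 12.5 mg/kg/day, 1 point per mouse, with the mean ± SD beside each group and the floor dotted. High dose replicate 8 on slide 1 is the highest of its group in all 4 panels.

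Among hepatocyte miRNAs, 6 of 12 were above 0 and 6 below it, with a median of 0.01. With all probes or labelling spike-ins as the scale 12 of 12 were above 0, with medians of 0.25 and 0.31. The medians of all miRNAs were then 0.13 and 0.21, and 2 of the 12 passed with labelling spike-ins. miR-122, which supports lipid metabolism and is the defining hepatocyte miRNA, averaged 6.70 ± 0.25 at the high dose (SD, n = 5) and 6.74 ± 0.13 at the middle dose (SD, n = 4). Its difference was -0.06, with an interval of 0.756- to 1.21-fold. miR-192 differed by 0.04 and miR-194, cut from the same transcript, by -0.03. miR-802, a liver miRNA tied to glucose metabolism, had the largest positive difference of the 175. It stood at -3.00, -3.62, -3.79, -4.12 and -3.83 at the high dose and -3.63, -3.94, -4.37 and -4.37 at the middle dose. The last 2 were at the floor, and the 2 others lay among the high dose levels. The difference was 0.47 (95% interval 0.08 to 0.87, adjusted p = 0.735), with 0.48, 0.42 and 0.54 on the 3 slides. It ran between -0.14 and 1.37 over the other settings.

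The p53 list had 7 tested members, of which 2 were above 0 and 5 below it, with a median of -0.03. The list of miRNAs linked to the aryl hydrocarbon receptor had 2, miR-96 at -0.13 and miR-212-3p, at the floor on all 9 arrays. miR-21, often raised in injured or tumour-bearing liver, differed by -0.10 (95% interval -0.50 to 0.31), and the liver tumour list had 2 tested members, both below 0. In the stress and inflammation list 3 of 3 were below 0 with a median of -0.02. The let-7 family, which restrains growth genes, had 5 above and 4 below 0 with a median of 0.00. The miR-17 clusters, which promote proliferation, had 8 tested members, 3 above and 5 below 0, with a median of -0.07. Among them, miR-25, miR-93 and miR-106b of 1 transcript differed by -0.16, -0.15 and -0.14 (adjusted p = 0.735, 0.735 and 0.833). By seed, miR-92a with the seed of miR-25 differed by -0.11 and miR-20a with that of miR-93 by 0.00. The miR-15/16 seed family, which targets cyclins, was below 0 in 6 of 6 with a median of -0.14, and above 0 in 6 of 6 with all probes or labelling spike-ins as the scale. The miR-29 and miR-30 families had 7 of 8 below 0 (median -0.05), miR-148a, miR-148b and miR-152 2 of 3 (-0.03) and the miR-10, miR-99/100 and miR-125 families 5 of 6 (-0.11). With all probes or labelling spike-ins as the scale, all of the let-7 family (9 of 9) and the miR-17 clusters (8 of 8) were above 0. So were 8 of 8 of the miR-29 and miR-30 families. Of 36 miRNAs listed for the imprinted Dlk1-Dio3 cluster 3 were tested and 2 were above 0. The third, miR-494, differed by -0.56 and was at the floor on 7 of 9 arrays. miR-3072*, not on that list, lies near miR-668 and miR-409-3p of the list and differed by 0.13. Outside the lists, the miRNAs named miR-2132_v15.0, miR-2133_v15.0 and miR-2140_v15.0 on the array differed by -0.66 (95% interval -2.11 to 0.79), -0.32 (-0.52 to -0.12) and -0.40 (-1.26 to 0.47). The miR-2140_v15.0 difference was 0.03 when middle dose replicate 20 was left out and 0.04 when high dose replicate 23 was, the 2 arrays of these doses on slide 3, and that of miR-2132_v15.0 lay between -1.10 and -0.30 without any 1 array. miR-1939 differed by 0.23 (0.01 to 0.46) and miR-33, which regulates cholesterol export, by 0.13 (-0.18 to 0.44).

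No marker of blood or vessel cells passed. miR-223 of myeloid cells averaged -1.60 ± 0.09 at the high dose (SD, n = 5) and -1.49 ± 0.18 at the middle dose (SD, n = 4), a difference of -0.12 (95% interval -0.36 to 0.13). miR-139-5p, listed with endothelium though other cells make it, differed by -0.05 (-0.27 to 0.18) and miR-126-3p, defining for endothelium, by -0.08 (-0.21 to 0.05). The erythroid miR-451 differed by -0.22 and miR-144 by -0.12, with middle dose replicate 20 the highest of all 9 for both. The summed signal (log2) of leukocyte markers was 0.34 to 0.85 at the high dose and 0.47 to 0.78 at the middle dose. That of endothelial markers was 1.53 to 1.72 at the high dose and 1.60 to 1.76 at the middle dose, and that of erythroid markers 2.61 to 3.13 at the high dose and 2.38 to 3.78 at the middle dose.

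Neighbouring hairpins, which can share a transcript, were then read together. Of the 175 miRNAs 126 could be placed on a RefSeq hairpin by name. They formed 22 clusters of at least 2 tested miRNAs with hairpins on 1 strand no more than 10000 bases apart. In 9 clusters all members were below 0, in 2 all were above it and in 11 they were mixed. Among these 22 the most negative medians were those of miR-199a-2 with miR-214 (-0.39), the miR-23a cluster (-0.19) and the miR-106b cluster (-0.15). These clusters have 3 tested miRNAs each, out of 175, and hold 7 of the 10 with an unadjusted p under 0.05. In the limma refit of miRNAs never at the floor, miR-23a, miR-25 and miR-93 had an unadjusted p of 0.054, 0.071 and 0.078. miR-199a-5p, which touched the floor, was not in that refit. The clusters were picked by the same differences, so the count of 7 is no separate support. The miR-199a pair and miR-24 also have a hairpin elsewhere, so their signal cannot be assigned to 1 cluster. Hairpins whose names did not match were left out. For example, miR-195 lies beside miR-497 on chromosome 11. The pair differed by -0.23 and -0.24, both more negative than the miR-23a cluster median. The matched members of the miR-17 cluster on chromosome 14 had a median of 0.00 and lay between -0.03 and 0.01. Of these, miR-17* was at the floor on all 9 arrays. miR-92a, whose hairpin lies beside them but did not match by name, differed by -0.11. These counts are descriptions, and the sign counts turn with the scaling as given above.

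**Figure D5:**
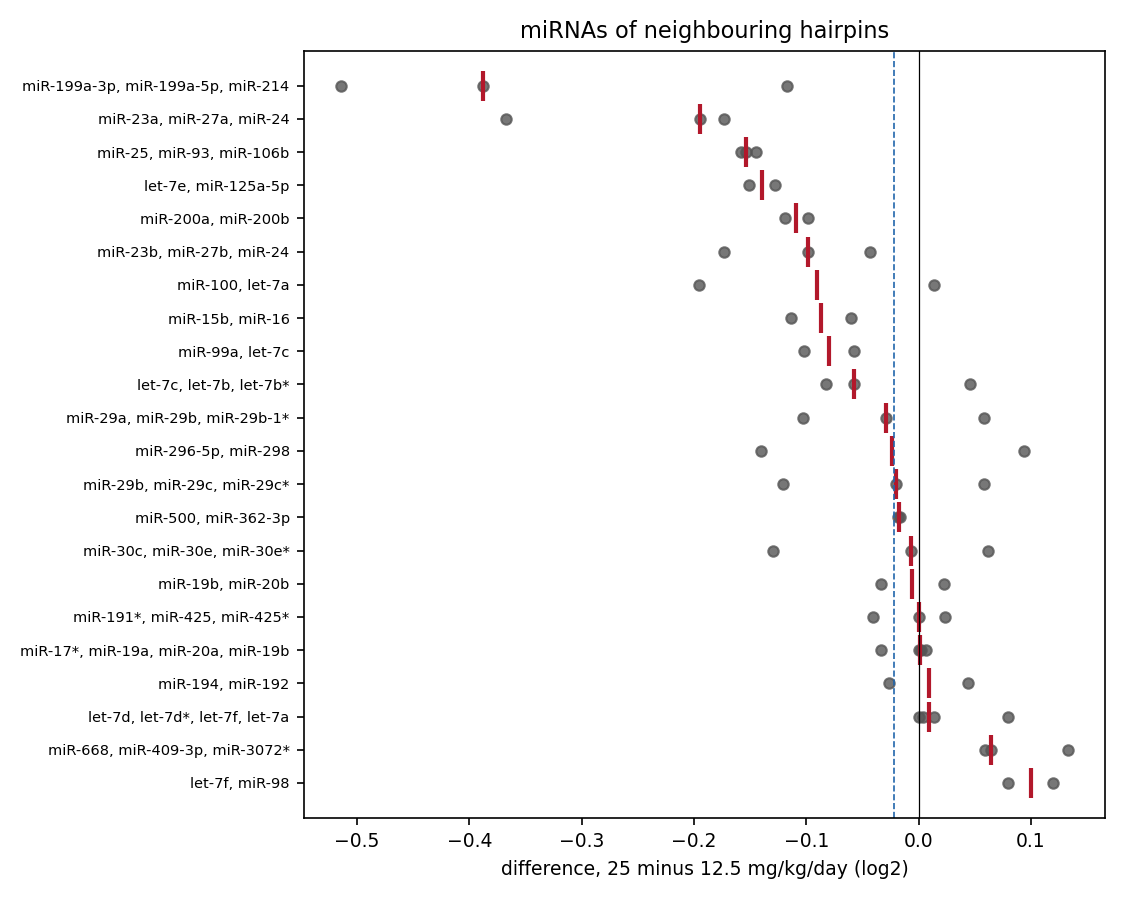
Differences (high minus middle dose, log2) of tested miRNAs in 22 genomic clusters of hairpins matched by name, 1 row per cluster and 1 point per miRNA. The red bar is the cluster median, the dashed line the median of all 175 miRNAs at -0.02, and the clusters of miR-199a-2, miR-23a and miR-106b are at the top.

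Presence or absence of detection was also set side by side. Of 696 miRNAs, 0 were detected on every array of one dose and on no array of the other. Of the 29 detected on 1 to 3 arrays and not tested, 6 were detected at the high dose only, 9 at the middle dose only and 14 at both. Of the muscle miRNAs, miR-1 was detected on 1 high dose and 2 middle dose arrays, miR-133b on 1 and 1, and miR-133a and miR-206 on 0 high dose arrays and 1 middle dose array each, and miR-141, miR-200c and miR-429, relatives of miR-200a, on 1 high dose and 2 middle dose arrays each.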

How the data were processed

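Liver RNA (100 ng per array, per the labels) was hybridized to 1-colour Agilent miRNA arrays. Per the file headers, the authors' scanner files were made with Feature Extraction 10.7.3.1 and hold a background-subtracted signal intensity per spot. The headers' detection flag was used as deposited. The deposited value table of the series is on the log2 scale. How it was made is not given in the sources read for this report, so it served as an alternative (636 of 692 rows matched by name). Spots of 1 probe were averaged without control and outlier spots. Signals were expressed relative to the array's own 75th percentile, taken from 221 probes above background everywhere in the 9 arrays. Values under the floor (-4.37 on the log2 scale) were raised to it, and the brightest probe stood for a miRNA. miRNAs detected on at least 4 arrays were tested with limma 3.58.1 in R 4.3.3 (lmFit, eBayes), two-sided, with the slide as a fixed block, an adjusted p under 0.05 and 95% intervals. Whole-array measures and miR-34a also had exact permutation tests. The procedure was tested on simulated data. These had independent normal errors and left out the 17 miRNAs at the floor on all 9 arrays. The test therefore does not cover correlated miRNAs or a fit that includes those 17.

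Alternatives changed the scaling, background, floor, probe rule, filter, block and arrays in the fit. The normexp alternative used the median spot signal, since the files have no mean signal. The alternatives restricted to miRNAs never at the floor and on the total signal per miRNA were chosen after seeing the data. Named miRNAs were the 12 with the smallest p, the 5 largest differences each way among miRNAs detected on all arrays, for every list its 3 tested miRNAs of highest signal, for the change of step the 5 of smallest p, and always miR-23b, miR-223, miR-139-5p, miR-21, miR-122 and miR-34a. Any other was chosen after its values were seen. The comparison, lists and tests were chosen with earlier results of these data known. For arrays like these their number limits the precision.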

Additional observations from a re-analysis of the deposited data

Results flagged for a closer look

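In a group of 4 or 5 livers, the gap from 1 array to the rest was large for the range of the group in 10 of 129 groups examined, against 6.45 that chance gives at 1 in 20. High dose replicate 8 was the highest of its group in 5 of these, with log2 levels of -1.92 for miR-143 (next -3.34), -3.46 for miR-199b* (next -4.19), 0.00031 for miR-200b (next -3.21) and 0.0247 for miR-200a (next -3.63). The remaining one was miR-494 at -4.35, next to the floor of -4.37 at which the other 4 were tied, so that array did not stand apart in level. High dose replicate 16 was the highest for miR-409-3p, at -3.64. Middle dose replicate 14 was the lowest for miR-2133_v15.0, at -3.72, and the highest for miR-214, at -4.03. Middle dose replicate 20 was the highest for miR-2140_v15.0, at -0.133, and for miR-494, at -1.91.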

How the results depend on the processing

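The count of 0 called miRNAs held under all settings but 2: it was 1 with quantile normalization (miR-27a) and 5 with labelling spike-ins (miR-30e*, miR-715, miR-192, miR-193 and miR-33, all higher at the high dose). The count of intervals within 1.5-fold, 153 of 175, was 24 with normexp background, 666 of 696 with no filter on dim miRNAs, 102 with all probes, 115 with the total signal and 116 with spike-ins or no scaling. At an unadjusted p under 0.05, labelling spike-ins gave 61 higher and 0 lower and normexp background 0. The miR-34a difference lay between 0.12 and 0.65 over all settings and left-out arrays and was called in none. The median of all miRNAs moved to 0.13 with all probes, -0.10 without scaling, 0.21 with spike-ins and -0.26 with normexp background, so direction is relative to that shift. Of 62 named miRNAs 9 turned sign neither under another setting nor when any 1 array was left out: miR-34a, miR-27a, miR-199a-5p, miR-199a-3p, miR-199b*, miR-143, miR-214, miR-2132_v15.0 and miR-2133_v15.0. A difference of exactly 0 was not counted as a turn. It occurred under at least 1 setting for miR-199a-5p, miR-199b*, miR-214 and miR-2133_v15.0. Not every miRNA was present under all 18 other settings, and miR-214 was present under 16. No paired analysis was possible because the dose groups share no replicate number. Levels within 1 log2 unit of the floor are limited by signal over background.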
